A study of Mus musculus with 29 samples.

Results

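The genes of the motile cilium and its axoneme, the microtubule core that ependymal cells use to beat, were followed through TRAP-RNASeq libraries of mouse brain. The members were taken by gene symbol from a hand-written list of 39 symbols, and 28 of the 39 were found in the symbol column with over 20 counts in at least 1 library. They are 28 of 36172 gene rows, of which 15565 had over 20 counts in at least 1 library. The other 11 symbols, 10 axonemal dynein heavy chains and Pifo, were absent under these spellings. The heavy chains were listed under older symbols (Dnahc1 for Dnah1, and so on) and were matched by Entrez identifier, so they are described beside the 28 members and counted with them only where changes are set against exon length. Of these 10 heavy chains, 8 had over 20 counts in a library, while Dnah3, Dnah12 and Pifo were listed at 0 counts in all 29 libraries.

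The Aldh1l1-NuTRAP mice carried Aldh1l1-cre/ERT2, which drives recombination in astrocytes, and the Cx3cr1-NuTRAP mice carried Cx3cr1-cre/ERT2, which drives it in microglia. Both lines carried NuTRAP, a floxed cassette that after recombination tags the ribosomal protein L10a with EGFP, and all mice of both lines were given tamoxifen (100 mg/kg on 5 consecutive days) at about 3 months of age. RNA bound to an anti-GFP bead from half-brain homogenate is the positive fraction, the unbound RNA is the negative fraction and the cleared homogenate before the pull-down is the input. Tissue is brain RNA of the same mice isolated in the conventional way. The libraries comprised positive and negative fractions of 3 Aldh1l1-NuTRAP mice, positive and negative fractions and input of 6 Cx3cr1-NuTRAP mice, and tissue of 5 of these 6. No group without cre or without tamoxifen was analysed here, and neither line was made to tag ependymal cells. The labels mark separate animals as replicates and give the same animal number to the fractions of 1 mouse.

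A motile cilium is built around a ring of microtubule doublets and a central pair. Dynein arms on the doublets, each with heavy and intermediate chains, slide them against each other, while radial spokes and the central pair set the pattern of the beat and tektins stiffen the doublets. The transcription factors Foxj1, Rfx2 and Rfx3 switch on these genes in multiciliated cells. In the brain such cells are chiefly the ependymal cells that line the ventricles and move cerebrospinal fluid, and the choroid plexus epithelium also bears cilia.

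RFX factors bind the X-box, whose half-site reads GTTGCC. On the other strand it reads GGCAAC. The 250 bases before the RefSeq start sites (GRCm38.p6, the assembly also called mm10) were searched for this half-site on both strands, since these genes are textbook targets of the RFX members of the list. Windows were matched by Entrez identifier for 22 of the 28 members, and 8 of the 22 (36.4%) held the half-site in at least 1 window, against 3195 of 27025 genes with a window (11.8%). Of the dynein heavy chains, 1 of 9 with a window (11.1%) held it. The 8 were Rfx2, Dnaic2, Ccdc113, Spag16, Hydin, Tekt1, Tekt2 and Mlf1. Shown are the 120 bases before the start for 4 members that were higher in the Aldh1l1 positive than negative fraction (Rfx2, Dnaic2, Spag16, Tekt1) and 2 that were not called in that comparison (Ccdc113) or not tested in it (Hydin), each 5′ to 3′ on the strand of the gene with the half-sites in capitals. Tekt1 and Spag16 each hold 2 of them, as GGCAAC followed downstream by GTTGCC. A match of 6 letters is a description of the window and says nothing of binding.
Rfx2 (chr17:56831009-56831128, minus strand): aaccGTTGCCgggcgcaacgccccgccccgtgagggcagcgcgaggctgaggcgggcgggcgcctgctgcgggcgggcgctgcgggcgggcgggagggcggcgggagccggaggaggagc
Dnaic2 (chr11:114727299-114727418, plus strand): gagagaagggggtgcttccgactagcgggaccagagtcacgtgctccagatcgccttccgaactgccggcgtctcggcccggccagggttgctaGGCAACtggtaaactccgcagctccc
Spag16 (chr1:69826850-69826969, plus strand): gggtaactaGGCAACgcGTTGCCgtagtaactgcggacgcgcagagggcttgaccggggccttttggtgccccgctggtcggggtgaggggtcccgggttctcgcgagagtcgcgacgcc
Tekt1 (chr11:72361883-72362002, minus strand): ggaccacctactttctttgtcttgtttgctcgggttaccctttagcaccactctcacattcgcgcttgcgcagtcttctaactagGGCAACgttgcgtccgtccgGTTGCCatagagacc
Ccdc113 (chr8:95533980-95534099, plus strand): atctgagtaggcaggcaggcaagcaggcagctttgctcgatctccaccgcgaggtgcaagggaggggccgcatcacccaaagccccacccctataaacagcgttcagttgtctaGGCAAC
Hydin (chr8:110266857-110266976, plus strand): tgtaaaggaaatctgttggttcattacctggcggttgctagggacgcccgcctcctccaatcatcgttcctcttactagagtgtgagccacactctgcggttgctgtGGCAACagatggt

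Total counts per library ranged from 4260949, in the tissue library of mouse 210, to 26857866. The targeted cells were enriched in each line: 10 of 10 astrocyte markers were higher in the Aldh1l1 positive than negative fraction and 10 of 10 microglia markers were higher in the Cx3cr1 positive fraction than in input. Levels below are counts of a gene scaled to a common library total (CPM), and changes are log2 fold changes with their standard error from edgeR after TMM scaling. A change was called at an adjusted p under 0.05 (quasi-likelihood test, two-sided, Benjamini-Hochberg over all genes tested), and genes with over 20 counts in every library of at least 1 group of a fit were tested. By that filter 24 of the 28 members were tested in at least 1 of the 7 comparisons and 17 in every one. Wdr63, Armc4, Spag17 and Tekt2 were tested in none.

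The 28 members made up a small part of each library. Their summed level was 221 ± 4.70 CPM (SD, n = 3) in the Aldh1l1 positive fraction and 158 ± 17.5 CPM (n = 3) in the Aldh1l1 negative fraction, and no library of the first group overlapped the second. In the Cx3cr1-NuTRAP mice it was 138 ± 14.3 CPM (n = 6) in the positive fraction, 159 ± 6.15 CPM (n = 6) in the negative fraction, 159 ± 5.604 CPM (n = 6) in input and 189 ± 39.7 CPM (n = 5) in tissue. Within the Aldh1l1 line single members went both ways in CPM. The positive library exceeded the negative one in 17 members and fell short of it in 11 in mouse 290, in 12 and 16 in mouse 293 and in 13 and 15 in mouse 294. With total counts only, the scaling that CPM uses, the median log2 fold change of all genes tested between these fractions was -0.31. Of the 28 members 9 were too low to test between them, and the share of all genes was not counted by mouse. Ranked by group mean per kb of summed exon length, Foxj1 (14.4 CPM per kb), Rsph9 (14.0) and Dnaic1 (10.0) led in the Aldh1l1 positive fraction. The 10 ependymal markers fixed for the check of the label, Rarres2, Mia, Hdc, Cd24a, Ccdc153, Fam183b, Dynlrb2, Enkur, Meig1 and 1700012B09Rik, were measured above 0 except Mia, listed as Mia1, which was at 0 counts throughout. Their summed level ran from 44.2 to 75.3 CPM in the Aldh1l1 positive libraries, from 41.7 to 47.4 CPM in the Aldh1l1 negative libraries and from 54.9 to 78.0 CPM in tissue.

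**Figure D1:**
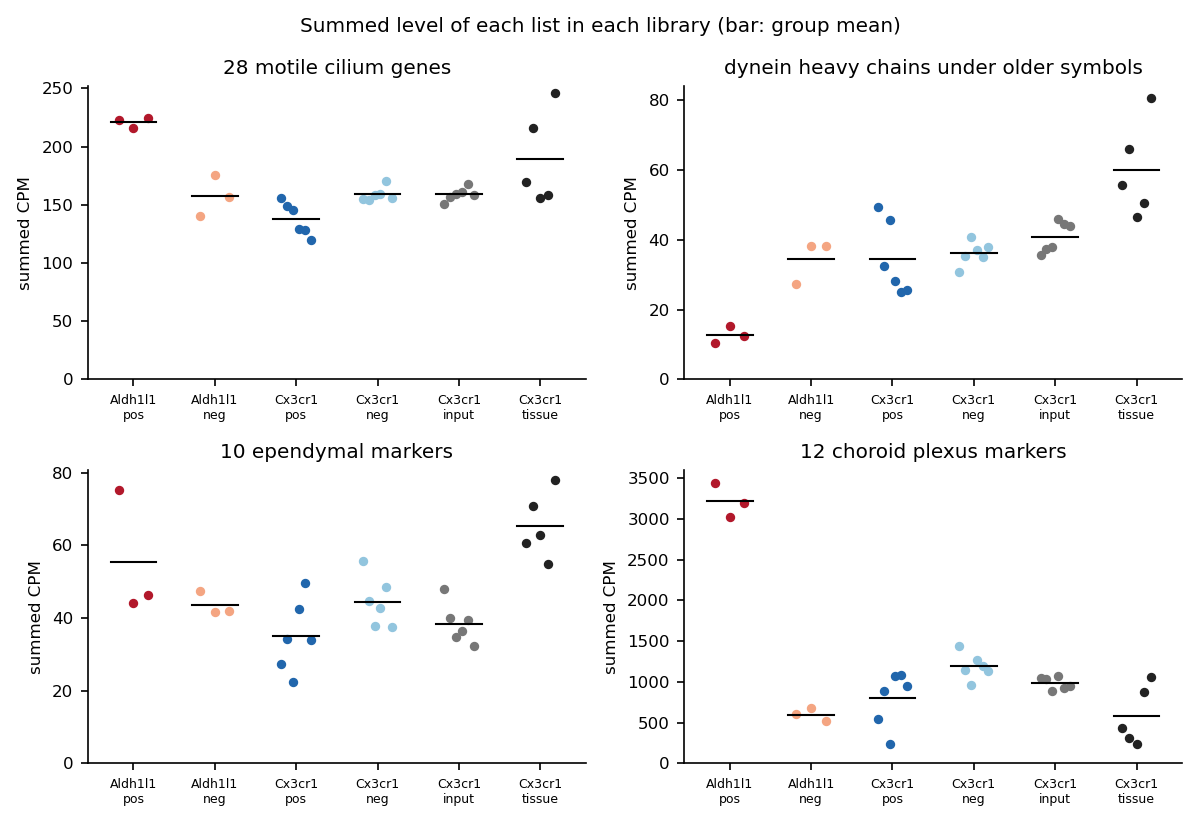
Summed CPM of 4 gene lists in each of the 29 libraries, with a bar at the group mean; the vertical scales differ between panels. The 28 members sum to more in the 3 Aldh1l1 positive libraries (216 to 225 CPM) than in the Aldh1l1 negative ones (141 to 176 CPM), whereas the dynein heavy chains sum to less (10.4 to 15.2 against 27.3 to 38.2 CPM).

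The Aldh1l1 positive and negative fractions were compared to ask which RNAs the tagged ribosomes of this line carried. The motile cilium genes split. Of the 19 members tested, 10 were higher in the positive fraction (Dnaic1, Tekt4, Rfx2, Tekt1, Foxj1, Dnaic2, Rsph1, Spag16, Rsph9 and Ccdc114), 2 were lower (Lrrc6 and Ccdc39) and 7 did not pass. Over all 13319 genes tested, 26.8% were higher and 24.8% were lower. That balance depended on the scaling, since with total counts only 2436 genes were higher and 4824 lower, and then 8 members were higher and 3 lower. The members' median log2 fold change was 0.99, against 0.04 over all genes. Of the 19, 4 (Rfx2, Spag16, Tekt4, Mlf1) passed the filter through the positive fraction alone and 3 (Lrrc6, Spag6, Ak7) through the negative fraction alone. Without the filter 10 members were higher and 1 was lower. All 12 called members moved the same way in 3 of 3 mice. The higher members were 6 without mouse 294 and the lower ones 4 without mouse 290 and 1 without mouse 293 or mouse 294.

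Foxj1 (Entrez 15223, chr11:116330704-116335354), the forkhead factor that commits cells to motile cilia, stood at 39.3, 34.2 and 39.8 CPM in the positive libraries of mice 290, 293 and 294. The negative libraries of the same mice had 12.8, 21.4 and 9.27 CPM. Every positive library lay above every negative one, a log2 fold change of 1.72 ± 0.30 (adjusted p = 0.0028), although without mouse 290 the adjusted p was 0.05 and the call was lost. Rfx2 (Entrez 19725, chr17:56775897-56831008) had 8.98, 15.5 and 18.8 CPM in the positive libraries. It had 1.82, 4.06 and 4.03 CPM in the negative libraries, again with no overlap, a log2 fold change of 2.43 ± 0.37 (adjusted p = 0.0015). Its paralog Rfx3 (Entrez 19726, chr19:27761721-28011166), which also acts outside motile cilia, behaved differently. The positive libraries held 36.0, 40.2 and 39.5 CPM of Rfx3 and the negative libraries 37.2, 49.9 and 49.6 CPM. The change was 0.11 ± 0.16 (adjusted p = 0.60), and its sign depended on the scaling (-0.24 with total counts only, which moved the median of all genes to -0.31).

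Among the dynein intermediate chains, which anchor the outer arm, Dnaic1 (Entrez 68922, chr4:41569794-41638158) changed most of all members. It had 34.8, 26.1 and 23.0 CPM in the positive libraries of mice 290, 293 and 294. In the negative libraries it had 4.39, 3.44 and 2.96 CPM, far below all of them (log2 fold change after TMM scaling 3.32 ± 0.27, adjusted p = 0.00011). Dnaic2, its partner in the same arm, had 10.5, 9.81 and 11.5 CPM against 7.003, 3.79 and 4.73 CPM (1.40 ± 0.28, adjusted p = 0.0050, lost without mouse 294). Another intermediate chain, Wdr78 of the inner arm, went the other way without being called. Its values were 4.68, 6.58 and 6.01 CPM in the positive and 7.03, 9.89 and 10.1 CPM in the negative libraries (-0.30 ± 0.23, adjusted p = 0.31). Wdr63, also of the inner arm, was too low to test, at 0.966 to 1.33 CPM in the positive and 0.342 to 0.832 CPM in the negative libraries.

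The tektins, filament proteins of the doublet wall, also changed. Tekt4 (Entrez 71840, chr17:25471590-25476594) had 5.42, 9.42 and 8.81 CPM in the positive libraries. Its negative libraries had 0.683, 1.36 and 0.995 CPM, well below them (log2 fold change 3.25 ± 0.34, adjusted p = 0.00030). Tekt1 (Entrez 21689, chr11:72344720-72361880) had 10.7, 5.82 and 6.76 CPM against 2.64, 2.30 and 2.04 CPM (2.09 ± 0.32, adjusted p = 0.0015). Tekt2 did not follow its relatives in level. At 1.11, 1.01 and 0.844 CPM in the positive and 0.683, 2.20 and 2.23 CPM in the negative libraries its groups overlapped, and it was not tested.

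Both radial spoke members tested were higher. Rsph9 (Entrez 75564, chr17:46129277-46144198), a spoke head protein, had 26.97, 19.2 and 21.2 CPM in the positive libraries and 15.1, 11.4 and 11.7 CPM in the negative ones (1.17 ± 0.22, adjusted p = 0.0037). Rsph1, also of the spoke head, had 10.7, 9.38 and 12.6 CPM against 5.30, 6.92 and 4.88 CPM (1.27 ± 0.23, adjusted p = 0.0029, lost without mouse 294). Of the central pair, Spag16 was higher by 1.20 ± 0.37 (adjusted p = 0.028), from low levels of 1.76, 2.76 and 2.29 CPM against 0.740, 1.43 and 1.52 CPM. That call was lost with total counts only and without mouse 293 or mouse 294. Spag6 had 0.756, 2.54 and 1.61 CPM in the positive and 4.67, 3.90 and 4.52 CPM in the negative libraries. The groups did not overlap, but its change of -1.03 ± 0.41 missed the threshold (adjusted p = 0.067). With the mouse as a block it passed (-1.06, adjusted p = 0.025). The row named Spag6 is the gene now called Spag6l, whose near-identical copy is a separate row, so the split of reads between them is uncertain.

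The members that build or dock the dynein arms went both ways. Lrrc6 (Entrez 54562, chr15:66379858-66500910), needed to assemble dynein arms in the cytoplasm, had 0.699, 0.762 and 0.986 CPM in the positive libraries. The negative libraries had 4.27, 3.83 and 3.14 CPM, and the groups were far apart (log2 fold change -1.84 ± 0.32, adjusted p = 0.0024). Ccdc114, of the outer arm docking complex, had 6.10, 6.20 and 6.14 CPM against 4.19, 4.48 and 3.14 CPM (0.99 ± 0.24, adjusted p = 0.011, lost with total counts only and without mouse 293 or 294). Zmynd10, which acts with Lrrc6 in assembly, had 3.00, 2.08 and 2.35 CPM against 2.35, 3.17 and 3.55 CPM and showed a change of 0.03 ± 0.30 (adjusted p = 0.94). Ccdc39 (Entrez 51938, chr3:33812361-33844310), a coiled-coil ruler of the doublets, fell by 0.64 ± 0.22 (adjusted p = 0.045), from 10.7, 17.2 and 16.7 CPM in the negative to 6.92, 7.52 and 8.19 CPM in the positive libraries. This call did not hold without mouse 293 or 294, without the filter on low counts or with all groups in 1 fit. The remaining members tested, Ccdc113 (-0.38 ± 0.33), Ak7 (-0.36 ± 0.50) and Mlf1 (0.63 ± 0.40), were not called.

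**Figure D2:**
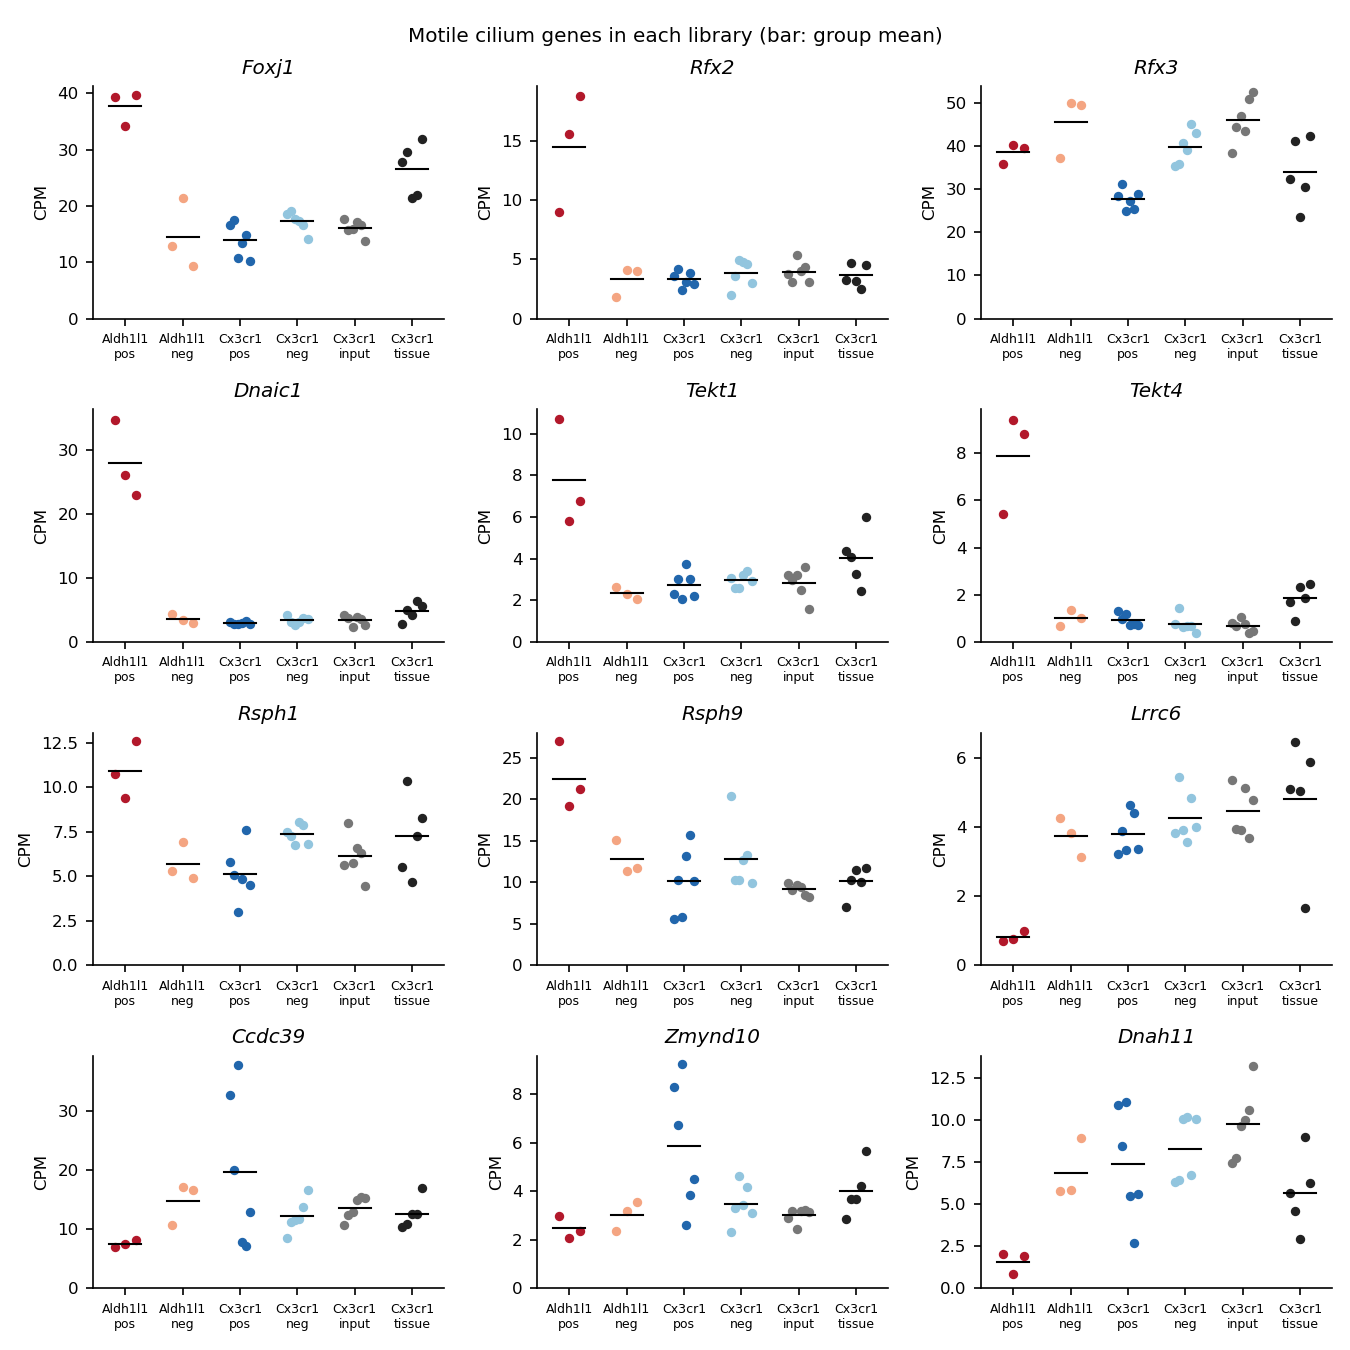
CPM of 11 members and the heavy chain Dnah11 in each library, by group, with a bar at the group mean; each panel has its own scale from 0. The 3 Aldh1l1 positive libraries lie above all other libraries for Foxj1, Rfx2, Dnaic1 and Tekt4 and below all others for Lrrc6 and Dnah11.

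The dynein heavy chains, the motor subunits of the arms, were measured in the same libraries. Of the 6 tested, 4 were lower and 0 were higher by edgeR, also at an unadjusted p under 0.05, beside 24.8% lower and 26.8% higher over all genes, and their median log2 fold change was -0.98. Dnah1, Dnah2, Dnah6, Dnah9 and Dnah11 passed the filter through the negative fraction alone, where they were high, and Dnah5 through the positive fraction alone. Without the filter Dnah1, Dnah2 and Dnah11 were still called lower. Dnah11 (Entrez 13411), an outer arm chain, had 2.01, 0.827 and 1.94 CPM in the positive and 5.78, 5.86 and 8.91 CPM in the negative libraries (-1.79 ± 0.40, adjusted p = 0.0080, lost without mouse 294). Dnah1 (Entrez 110084), of the inner arm, had 1.01, 3.94 and 2.73 CPM against 5.94, 9.75 and 8.98 CPM (-1.31 ± 0.44, adjusted p = 0.041). Dnah2 (-1.003 ± 0.25, adjusted p = 0.013) and Dnah9 (-0.95 ± 0.34, adjusted p = 0.047) were the other chains called, and without mouse 293 or 294 the calls of Dnah1, Dnah2 and Dnah9 were lost, that of Dnah9 also without mouse 290 and without the filter. Dnah5 (-0.96 ± 0.42, adjusted p = 0.094) and Dnah6 (-0.70 ± 0.35, adjusted p = 0.13) were lower in every mouse and not called, though Dnah5 passed with the mouse as a block (-0.91, adjusted p = 0.045). Of the outer arm, the intermediate chains Dnaic1 and Dnaic2, which passed the filter in both fractions, were called higher. The heavy chains Dnah9 and Dnah11, which passed it in the negative fraction alone, were called lower, Dnah9 only with the filter. Dnah5, which passed it in the positive fraction alone, was not called, so these calls do not set the heavy chains against the intermediate chains on equal terms.

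The heavy chains are also the longest of these genes, and length moved with the change between the Aldh1l1 fractions. All of the 7 motile cilium genes tested with summed exons over 8 kb (the 6 heavy chains and Rfx3) had a change of 0.11 or less, with a median of -0.96. Of these, Dnah1, Dnah2, Dnah6, Dnah9 and Dnah11 passed the filter through the negative fraction alone, where they were high, and Dnah5 through the positive fraction alone. The 6 under 2 kb had a median of 1.22, with 4 higher and 0 lower. Of all 1458 genes tested in that length class, 522 were higher and 215 lower. Over all genes tested the median ran from 0.55 under 2 kb, through 0.24 at 2 to 4 kb and -0.05 at 4 to 8 kb, to -0.33 over 8 kb. Spearman's rho between exon length and log2 fold change was -0.48 across the 25 motile cilium genes tested and -0.22 across 12905 genes, which share the same libraries. The 25 include genes that passed the filter through 1 fraction alone. For Cx3cr1 positive against negative rho was 0.41 across 28 motile cilium genes and -0.11 across all genes. Against input it was -0.09 and -0.36, for input against tissue -0.18 and -0.01, and between the positive fractions -0.51 and -0.20. The part of length in the split was not tested.

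**Figure D3:**
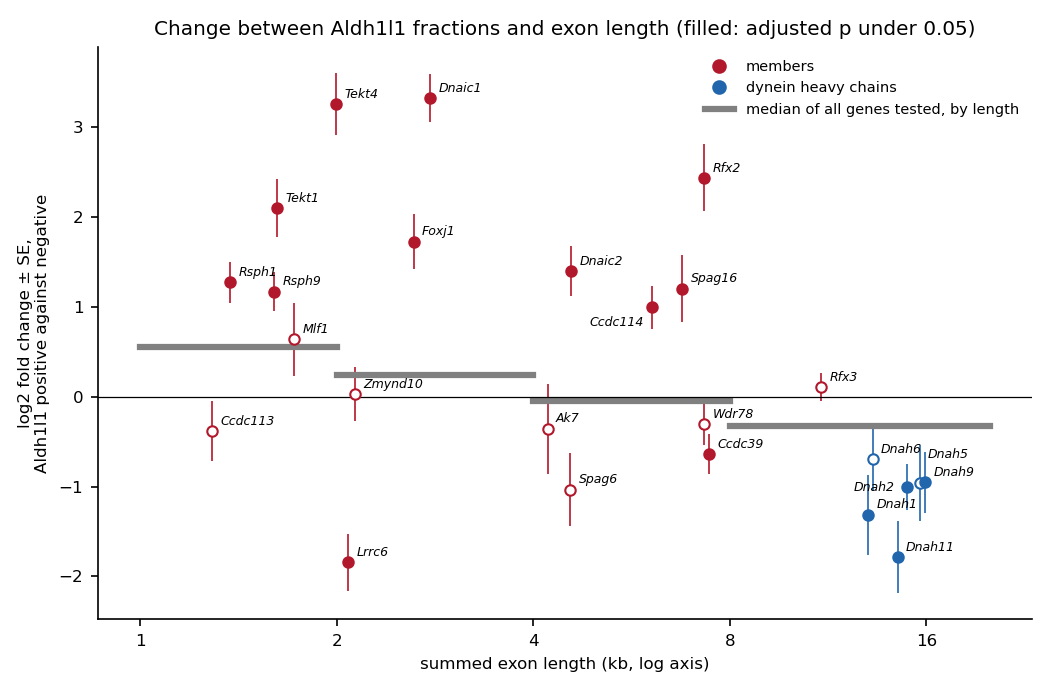
Log2 fold change ± SE between the Aldh1l1 positive and negative fractions against summed exon length in kb (log axis), for the 19 members and 6 heavy chains tested; filled points had an adjusted p under 0.05. Grey bars give the median of all genes tested in 4 length classes, 0.55, 0.24, -0.05 and -0.33, with the outer classes drawn to the edge of the plot.

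Markers of other cells moved in the same comparison. Those of neurons (10 of 10, median -1.58), oligodendrocytes (9 of 10, -2.79) and microglia (10 of 10, -2.27) were lower in the Aldh1l1 positive fraction, and their part in the lower members and heavy chains was not tested. All 12 choroid plexus markers were higher in the Aldh1l1 positive fraction, by 1.04 to 2.85 on the log2 scale, and their summed level was 3026 to 3439 CPM in the positive against 519 to 676 CPM in the negative libraries. Ttr, the main secreted protein of that epithelium, had a change of 2.85 ± 0.17. Of the 5 ependymal markers tested, Rarres2 (2.19 ± 0.36), Dynlrb2 (1.72 ± 0.43) and Hdc (1.35 ± 0.29) were higher, Cd24a was lower (-0.70 ± 0.20) and Ccdc153 was not called (-0.11 ± 0.42). The part of choroid plexus or ependymal RNA in the members' change was not tested. In bulk RNA, more or fewer cells of a type and more or less RNA per cell cannot be told apart.

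Other cilium genes were taken from 2 further lists. Of 55 listed genes of the motile cilium outside the 28 members, 31 were tested between the Aldh1l1 fractions, and 13 were higher and 3 were lower (median 0.36), beside the same 26.8% and 24.8% over all genes. Tppp3, a tubulin polymerization protein (-0.19), and Gas8 of the nexin-dynein regulatory complex (0.28), which had the highest CPM of this list, were not called. Of 59 genes of the primary, nonmotile cilium, which neurons and astrocytes carry, 58 were tested, with 13 higher and 15 lower (median -0.19), near those shares. Ahi1 (-0.85) and Kifap3 (-0.96), with the highest CPM of that list, were both lower.

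In the Cx3cr1-NuTRAP mice the positive fraction was compared with input for the same purpose. Here 21 members were tested, 1 was higher (Zmynd10) and 5 were lower (Rfx3, Spag6, Hydin, Rsph4a and Ak7), beside 23.3% higher and 25.6% lower over all 13838 genes. Spag16, Hydin and Ak8 passed the filter through input alone, so Hydin was tested only because it was high there. Markers of other cells were lower in the same comparison, 9 of 10 for oligodendrocytes (median -0.68), 7 of 10 for astrocytes (-0.43), 6 of 12 for choroid plexus (-0.58) and 2 of 10 for neurons (-0.02), while 0 of 6 ependymal markers were called by edgeR (1 lower at an unadjusted p under 0.05). Their part in the members' change was not tested. The members' median was -0.20 and that of all genes -0.00. Foxj1 ran from 10.3 to 17.5 CPM (median 14.2) in the positive and from 13.8 to 17.6 CPM (median 16.3) in input libraries, overlapping groups with a change of -0.20 ± 0.13 (adjusted p = 0.22). Rfx2, at 2.43 to 4.18 CPM against 3.08 to 5.32 CPM, changed by -0.22 ± 0.18 (adjusted p = 0.31). Rfx3 was the clearest of the lower members. Its positive libraries spanned 24.9 to 31.2 CPM (median 27.8), all below the input libraries at 38.5 to 52.5 CPM (median 45.7), and the change was -0.72 ± 0.09 (adjusted p = 1.9e-05).

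Spag6 had 2.13 to 2.91 CPM (median 2.69) against 3.29 to 5.84 CPM (median 4.06) in input, with no overlap (-0.71 ± 0.16, adjusted p = 0.0020). Hydin, the large central pair protein, had 1.06 to 2.97 CPM against 2.73 to 5.06 CPM, overlapping groups (-0.70 ± 0.22, adjusted p = 0.018). The spoke protein Rsph4a (-0.64 ± 0.23, adjusted p = 0.033) and the adenylate kinase Ak7 (-0.56 ± 0.17, adjusted p = 0.016) completed the lower group. Hydin, Rsph4a and Ak7 each lost their call without some single mice, mouse 192 in all 3 cases and also mouse 277 for Hydin and Rsph4a, mouse 209 for Hydin, mouse 194 for Rsph4a and mouse 210 for Rsph4a and Ak7. Without mouse 192 only 2 members were lower, without mouse 210 or mouse 277 only 3, and without mouse 277 2 were higher. Ak8, a second adenylate kinase of the axoneme, had a change of -0.61 ± 0.31 (adjusted p = 0.11). Of the heavy chains, Dnah5 (-0.89 ± 0.21, adjusted p = 0.0028) and Dnah9 (-0.44 ± 0.15, adjusted p = 0.030, lost without mouse 155, 192, 209 or 277) were lower and the other 5 tested were not called.

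Zmynd10 (Entrez 114602, chr9:107547310-107551319) was the only member higher in the Cx3cr1 positive fraction than in input, by 0.98 ± 0.27 (adjusted p = 0.0080). Its positive libraries of mice 155, 192 and 194 had 8.29, 6.75 and 9.23 CPM, and those of mice 209, 210 and 277 had 2.62, 3.87 and 4.52 CPM. The 6 input libraries spanned 2.46 to 3.24 CPM, so the rise was large in 3 mice, smaller in 2 and absent in mouse 209. Ccdc39 showed the same division of the libraries, with 32.7, 20.1 and 37.9 CPM in mice 155, 192 and 194 and 7.80, 7.17 and 12.9 CPM in mice 209, 210 and 277, against 10.8 to 15.4 CPM in input. Its change of 0.56 ± 0.38 was not called (adjusted p = 0.24). The summed microglia markers of the same positive libraries were 4608, 5291 and 8138 CPM in mice 155, 192 and 194 and 3384, 4062 and 4674 CPM in mice 209, 210 and 277. Those ranges overlapped. So did the ependymal markers, at 27.3, 34.3 and 22.5 CPM against 42.6, 49.6 and 33.8 CPM, and the oligodendrocyte markers, at 3210, 3456 and 1422 CPM against 3808, 3767 and 3088 CPM. The other 3 lists divided the libraries without overlap. Neuron markers summed to 7203, 7986 and 6495 CPM in mice 155, 192 and 194 and to 10034, 9611 and 9126 CPM in the other 3. Astrocyte markers summed to 4090, 4001 and 3345 CPM against 5002, 5144 and 4985 CPM, and choroid plexus markers to 539, 885 and 242 CPM against 1075, 1083 and 948 CPM. The summed 28 members, which include Zmynd10 and Ccdc39, divided them too, at 156, 149 and 146 CPM in mice 155, 192 and 194 and 129, 129 and 120 CPM in the other 3. The list of 59 primary cilium genes divided them as well, at 2738, 2560 and 2693 CPM against 2410, 2375 and 2475 CPM. In the list of 55 other motile cilium genes the ranges overlapped, at 334, 310 and 315 CPM against 288, 314 and 288 CPM. The part of these markers' cells in the values of Zmynd10 and Ccdc39 was not tested.

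Against the negative fraction of the same mice, 4 of 21 members were lower in the Cx3cr1 positive fraction (Rfx3, Spag6, Ak7 and Rsph1), where 11.6% of 13776 genes were lower. Oligodendrocyte (9 of 10, median -0.75), astrocyte (7 of 10, -0.42), choroid plexus (5 of 12, -0.63) and neuron markers (1 of 10, -0.15) were lower as well, and their part was not tested. By edgeR 0 were higher (1 at an unadjusted p under 0.05, 1 by DESeq2 and 1 without mouse 209), where 12.8% of genes were. Rfx3, with a change of -0.50 ± 0.08 (adjusted p = 0.00065), was the only one of the 4 called under every alternative. With the mouse as a block 2 members were lower, Spag6 (adjusted p = 0.084) and Ak7 (adjusted p = 0.064) being lost. The count was 1 without mouse 192, 194 or 277 and 2 without mouse 209 or 210. The 10 members that were higher in the Aldh1l1 positive fraction had values of 0.35 (Ccdc114) or below here, wherever they were tested.

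**Figure D4:**
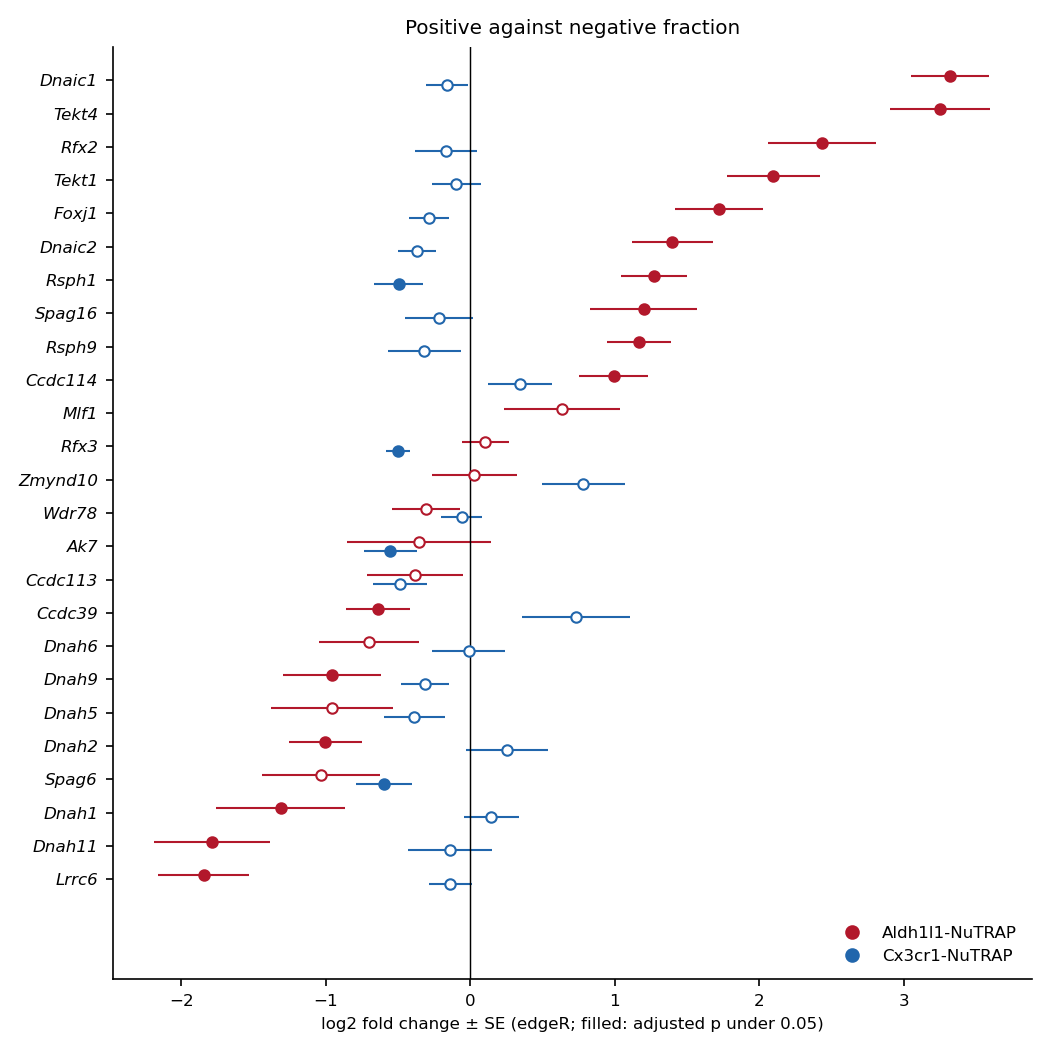
Log2 fold change ± SE of the positive against the negative fraction in Aldh1l1-NuTRAP (red) and Cx3cr1-NuTRAP (blue) mice, for the members and heavy chains tested in the first line; filled points had an adjusted p under 0.05. The Aldh1l1 changes run from -1.84 (Lrrc6) to 3.32 (Dnaic1), and the Cx3cr1 changes of the same genes from -0.59 (Spag6) to 0.78 (Zmynd10).

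The difference between the lines was tested directly, as an interaction of line and fraction. Of 23 members tested, 10 had a larger positive-to-negative ratio in the Aldh1l1 line and 1, Lrrc6, had a smaller one, beside 25.5% and 29.9% of 13983 genes. With total counts only these were 9 and 2 members, beside 2600 and 5719 genes. The largest differences were those of Dnaic1 (3.44 ± 0.26, adjusted p = 3.8e-09), Tekt4 (2.88 ± 0.49, adjusted p = 6.6e-05) and Rfx2 (2.55 ± 0.41, adjusted p = 4.5e-05), but Tekt4 passed the filter through the Aldh1l1 positive fraction alone, where it was high. Tekt1 (2.15 ± 0.32, adjusted p = 2.0e-05) and Foxj1 (1.96 ± 0.30, adjusted p = 2.5e-05) followed, and Lrrc6 differed by -1.74 ± 0.29 (adjusted p = 5.7e-05). Rfx3 differed by 0.56 ± 0.15 (adjusted p = 0.0052), a call that was lost with total counts only. The members with a smaller ratio were 2 without Cx3cr1 mouse 209 or 210 or Aldh1l1 mouse 290 and 3 without Cx3cr1 mouse 277. The members' median was 0.56 and that of all genes -0.11. Dnah1 (-1.50 ± 0.43), Dnah11 (-1.71 ± 0.55) and Dnah2 (-1.31 ± 0.47) were the heavy chains with a smaller ratio in the Aldh1l1 line, the last 2 of them lost without Aldh1l1 mouse 293 or 294. All 12 choroid plexus markers had a larger ratio there, by 1.25 to 3.66, as had 3 of 7 ependymal markers and 1 of 10 oligodendrocyte markers (0.89). A smaller one was found for 10 of 10 neuron (median -1.51) and 9 of 10 oligodendrocyte markers (-2.003). The part of these cells was not tested.

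Between the 2 positive fractions themselves, which share libraries with the comparisons above, 10 of 21 members were higher in the Aldh1l1 line and 1 (Lrrc6) was lower, beside 30.6% and 33.1% of 13676 genes. With total counts only 10 members were higher and 4 lower, beside 2875 and 6312 genes. Spag16, Tekt4 and Mlf1 passed the filter through the Aldh1l1 positive fraction alone, and Lrrc6, Ccdc40, Spag6, Rsph4a and Ak7 through the Cx3cr1 positive fraction alone, so Tekt4 and Lrrc6 were tested only because each was high in 1 group. Dnaic1 at 2.75 to 3.30 CPM (median 2.89) and Tekt4 at 0.696 to 1.30 CPM (median 0.877) in the Cx3cr1 positive libraries lay far below the Aldh1l1 positive libraries, with differences of 3.56 ± 0.16 and 3.40 ± 0.27. Lrrc6, at 3.22 to 4.64 CPM in the Cx3cr1 positive libraries, was lower in the Aldh1l1 ones (log2 difference -1.90 ± 0.25, adjusted p = 5.6e-05). Markers of other cells differed too, with 12 of 12 choroid plexus (median 2.07) and 3 of 7 ependymal markers higher in the Aldh1l1 line. Of the neuron markers 10 of 10 (-1.47) and of the oligodendrocyte markers 9 of 10 (-1.46) were lower, while 1 oligodendrocyte marker was higher (1.05). Their part was not tested. Without Cx3cr1 mouse 209 or mouse 277 3 members were lower, and without mouse 210 there were 2.

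The negative fractions of the lines, mostly untagged brain RNA, were compared in the same way. Of 21 members 0 were called in either direction by edgeR or by DESeq2, with 0 higher and 2 lower at an unadjusted p under 0.05, and 0.125% of 13613 genes were called in each direction. The members' median was -0.08, within -0.57 (Spag16) to 0.41 (Ccdc114). Foxj1 had 14.2 to 19.2 CPM (median 17.6) in the Cx3cr1 negative libraries, a log2 difference of -0.21 ± 0.22. Dnaic1 had 2.56 to 4.18 CPM (median 3.31) there, a log2 difference of 0.12 ± 0.21. The marker lists were less alike, since 1 of 12 choroid plexus markers was lower in the Aldh1l1 line (11 at an unadjusted p under 0.05, median -0.68), with sums of 519 to 676 against 967 to 1439 CPM, and 2 of 10 oligodendrocyte markers were higher (8 unadjusted). Of the astrocyte markers 2 of 10 were lower (5 unadjusted) and of the microglia markers 1 of 10 was higher (3 unadjusted).

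Input and conventionally isolated tissue of the Cx3cr1-NuTRAP mice were also compared. They differ in preparation and, since the tissue samples are titled as slices while input came from half-brain homogenate, may differ in the piece of brain taken, and these cannot be told apart. Of 21 members tested, 6 were lower in input (Ak7, Rsph4a, Ccdc40, Foxj1, Spag16 and Dnaic2) and 1 was higher (Rfx3), beside 14.2% lower and 16.3% higher over 13608 genes. The members' median was -0.39 and that of all genes 0.00. Ak7 (Entrez 78801, chr12:105705982-105782447) had 2.55 to 3.90 CPM (median 3.43) in input and 6.79, 9.34, 6.33, 6.57 and 12.2 CPM in the tissue of mice 192, 194, 209, 210 and 277, with no overlap (-1.34 ± 0.19, adjusted p = 0.00021). Foxj1 was likewise lower in every input library, at 13.8 to 17.6 CPM against 27.9, 29.6, 21.4, 21.9 and 32.0 CPM (-0.73 ± 0.11, adjusted p = 0.00027). Ccdc40, the partner of Ccdc39, fell by 0.93 ± 0.22 (adjusted p = 0.0053). Rsph4a (-0.99 ± 0.26, adjusted p = 0.010) and Spag16 (-0.66 ± 0.21, adjusted p = 0.030) were not called with the mouse as a block (adjusted p = 0.054 and 0.17), and Dnaic2 was not called without mouse 192 or mouse 277. Rfx3 was higher in input by 0.43 ± 0.14 (adjusted p = 0.027), which was lost without mouse 192, 209 or 210.

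Of the 7 heavy chains tested here, 5 were lower in input, led by Dnah10 (-1.61 ± 0.22, adjusted p = 0.00014) and Dnah1 (-0.97 ± 0.16, adjusted p = 0.00052), and Dnah11 was higher (0.88 ± 0.22, adjusted p = 0.0088, lost with all groups in 1 fit). Dnah5, Dnah6 and Dnah9 were the other lower chains, and with the mouse as a block they were not called (adjusted p = 0.13, 0.099 and 0.054). All 6 ependymal markers tested were lower in input, by 0.53 (Cd24a) to 1.25 (Ccdc153) on the log2 scale, while 3 of 12 choroid plexus markers were higher and 1 was lower. Of the oligodendrocyte markers 9 of 10 were lower (median -0.37), of the astrocyte markers 3 of 10 were lower, and of the neuron markers 4 of 10 were higher and 2 lower. The part of RNA from these cells in the members' change was not tested. Within tissue, mice 277 and 194 had the highest summed members (246 and 216 CPM, against 156 to 170 CPM in the other 3), the highest heavy chains (80.5 and 66.0 CPM) and the highest ependymal markers (78.0 and 70.9 CPM). Their choroid plexus markers were 1061 and 316 CPM. The count of lower members moved when a mouse was left out with all its libraries. It was 3 without mouse 277 and 12 without mouse 210, whose tissue library had the fewest counts. Ak7, Foxj1 and Ccdc40 were called under every alternative in which they were tested. Of the 21 members tested, 11 passed the filter through input alone.

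**Figure D5:**
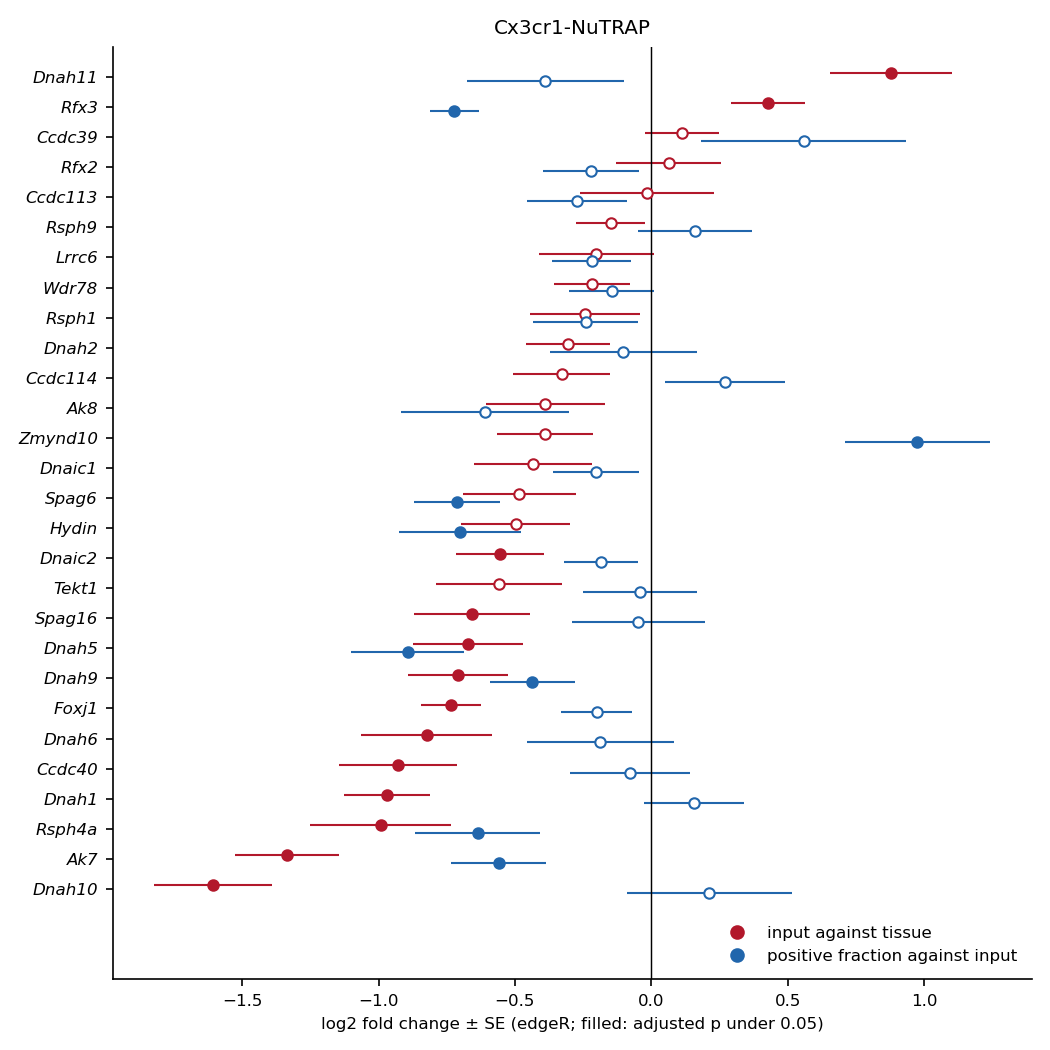
Log2 fold change ± SE in Cx3cr1-NuTRAP mice of input against tissue (red) and of the positive fraction against input (blue), for the members and heavy chains tested between input and tissue; filled points had an adjusted p under 0.05. Input lies below tissue for 6 members and 5 heavy chains called, from -0.55 (Dnaic2) to -1.61 (Dnah10), and above it for Rfx3 and Dnah11.

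Of the members tested in no comparison, Tekt2 reached 4.11 CPM in a Cx3cr1 positive library and the other 3 did not pass 2.58 CPM in any library. Spag17, of the central pair, had 0.112 to 0.252 CPM in the Aldh1l1 positive libraries, 0.497 to 1.09 CPM in the negative ones and 0.572 to 2.35 CPM in tissue. Armc4, a docking protein of the outer arm, lay between 0.228 and 0.672 CPM in the Aldh1l1 fractions and between 0.235 and 1.90 CPM in tissue. At this depth 3 counts correspond to 0.112 to 0.704 CPM, and differences among these values were not tested. Tmem212, a membrane protein enriched in ciliated cells, had 2.52, 0.553 and 0.269 CPM in the Aldh1l1 positive libraries and 1.88 to 5.77 CPM in tissue. It was tested only in the 3 comparisons that included the Cx3cr1 negative fraction, with no call. By edgeR its change was -0.61 for Cx3cr1 positive against negative (adjusted p = 0.28), 0.30 between the negative fractions and -0.03 in the interaction (adjusted p = 0.98).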

How the data were processed

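The deposited table gives, per gene and library, expected counts (raw values), which the authors made by trimming and aligning paired-end reads of strand-specific polyA libraries to mm10 in Strand NGS, with the strand respected and only reads in the right orientation kept, and assigning them to RefSeq genes. Fractional values made up 82.4% of the raw values above 0 (tolerance 1e-06), and all were rounded. The other deposited values, log2 values normalized by the authors with DESeq, were not used. No column of per-sample values was left without a sample. Counts were compared with edgeR 4.0.16 (R 4.3.3) on the groups of each comparison, without a mouse block (the study used ANOVA on its normalized values), and with DESeq2 1.42.0 as an alternative test. Libraries of 1 animal number come from the same mouse; residual correlations over 0.1 were found in 3 of 3 Aldh1l1 pairs, 3 of 6 Cx3cr1 positive and input pairs, 3 of 6 positive and negative pairs and 0 of 5 input and tissue pairs. Exon lengths are from GENCODE M21 (GRCm38), gene positions from the deposited table. On simulated counts for the Aldh1l1 fractions (13314 genes), 96 of 100 genes changed 2-fold and 100 of 100 changed 4-fold were recovered. The simulation gave every gene the same preset spread, had no pairing by mouse and changed only genes above a set expected count. It therefore does not give the recovery for members with low counts or a larger spread, and a member not called may have changed 2-fold. Full statistics were given for the 3 transcription factors, the most abundant member of each role (Tmem212 without standard errors), the 6 largest changes in 3 comparisons and members called against the majority. Members and lists were chosen with earlier results of these data known.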

Additional observations from a re-analysis of the deposited data

Results flagged for a closer look

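In 7 of 116 groups of 4 to 10 libraries, 1 library stood further from the rest than Dixon's 95% critical value allows, a rate near the 1 in 20 that chance gives. In the Cx3cr1 negative fraction mouse 155 had the lowest Spag6 (1.94 CPM, the others 3.71 to 4.71), the highest Rsph9 (20.4 CPM, the others 9.90 to 13.3) and the highest Tmem212 (3.26 CPM, the others 0.946 to 1.76). Mouse 192 had the highest Tekt4 there (1.44 CPM, the others 0.380 to 0.765), and mouse 210 the highest sum of the 28 members (170.7 CPM, the others 154.2 to 159.2). In input, mouse 210 had the highest Rsph4a (6.22 CPM, the others 3.12 to 4.28). In tissue, mouse 277 had the highest Ak8 (3.56 CPM, the others 1.88 to 2.02).

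The change between positive and negative fraction differed between the lines, by edgeR's interaction test, in 11 of 23 members tested. Over all 13983 genes tested this change was larger in the Aldh1l1 line for 25.5% and smaller for 29.9%. Among the members it was larger there for Foxj1 (1.96), Rfx2 (2.55), Rfx3 (0.56), Dnaic1 (3.44), Dnaic2 (1.73), Spag16 (1.37), Rsph1 (1.72), Rsph9 (1.45), Tekt1 (2.15) and Tekt4 (2.88). It was smaller for Lrrc6 (-1.74), each value being a difference of log2 fold changes. Tekt4 passed the filter through the Aldh1l1 positive fraction alone, where it was high.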

How the results depend on the processing

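Dnaic1, Tekt4, Rfx2, Tekt1, Rsph9 and Lrrc6 were called between the Aldh1l1 fractions under every alternative in which they were tested. The sign of Rfx3 there turned with total counts only (-0.24) and without mouse 290 (-0.0074, leave-one-out range to 0.16). The sign of Rfx2 between input and tissue turned without mouse 209 (-0.0207) or 210 (-0.0311, range to 0.20). Between the negative fractions Foxj1 turned without Aldh1l1 mouse 294 (0.0477, range from -0.61) and Rfx2 without Aldh1l1 mouse 290 (0.0907, range from -0.28). The cause of these turns was not tested.

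Counts of members moved as follows. Between the Aldh1l1 fractions, higher members ranged from 6 to 10 and lower ones from 1 to 4 with 1 mouse left out, and lower ones were 1 without the filter and 0 at 100 counts. For Cx3cr1 positive against input, 1 to 2 were higher and 2 to 5 lower with 1 mouse left out, 2 were higher without the filter, 0 higher and 1 lower at 100 counts, and 3 lower with all groups in 1 fit. Against the negative fraction, 0 to 1 were higher and 1 to 4 lower with 1 mouse left out, 1 higher and 7 lower by DESeq2, 2 higher and 1 lower with all groups in 1 fit, 1 lower without the filter or at 100 counts, and 2 lower with the mouse as replicate block. For input against tissue, 0 to 1 were higher and 3 to 12 lower with 1 mouse left out, and 1 was lower at 100 counts. Between the positive fractions, lower members were 1 to 3 with 1 mouse left out, 4 with total counts only or all groups in 1 fit, 3 by DESeq2, 2 without the filter and 0 at 100 counts. In the interaction they were 1 to 3 with 1 mouse left out, 2 with total counts only, by DESeq2 or with all groups in 1 fit, and 0 at 100 counts. Fewer genes were tested at 100 counts.

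Over all genes, leaving out mouse 293 or 294 moved the Aldh1l1 calls from 3569 higher and 3299 lower to 1977 and 1685 or to 1987 and 1600. Cx3cr1 positive against negative went from 1759 higher to 1151 without mouse 194, and from 1593 lower to 570 without mouse 192. Input against tissue went from 2217 higher to 1121 with all groups in 1 fit, and from 1927 lower to 1190 without mouse 194. Between the negative fractions, 17 higher and 17 lower became 256 and 261 by DESeq2 and 0 and 0 without Aldh1l1 mouse 293. With the mouse as replicate block, the calls that changed are those given beside the results, and no other member's or heavy chain's call changed. Members too low for the filter were not tested at this depth.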

Other observations

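Tekt2, tested in no comparison, had 3.32, 3.19 and 4.11 CPM in the Cx3cr1 positive libraries of mice 155, 192 and 194 and 2.14, 1.90 and 1.17 CPM in those of mice 209, 210 and 277. Dnah11 in the same libraries had 10.9, 8.47 and 11.1 CPM and then 5.46, 2.69 and 5.61 CPM, and Dnah2 had 6.12, 3.82 and 5.29 CPM and then 1.73, 2.75 and 2.15 CPM. The input libraries of the 6 mice had 0.762 to 2.02 CPM of Tekt2, 7.46 to 13.2 CPM of Dnah11 and 3.57 to 4.50 CPM of Dnah2. These genes were picked after the division of the libraries in Zmynd10 and Ccdc39 had been seen, so no test is given.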
